A study of Mus musculus with 4 samples.

Results

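Imprinted genes are read, in at least some tissues, mainly or only from the maternal or from the paternal copy. They were followed here as a panel of 41 genes in developing male gonads, chosen by name as well-known imprinted loci, with earlier results of these data known. A probe of the array was matched to 36 of the 41 through its RefSeq accession, and all 36 passed the filter on dim probes. No probe was matched to H19, Meg3, Rtl1, Magel2 or Zdbf2, which were not analysed here.

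The RNA came from whole gonads of wild-type male mouse embryos of the line labelled MCH, with no other treatment or allele, at a stage per day of gestation, from embryonic day 12.5 (written E12.5) through E15.5. Each of the 4 stages had 2 one-colour Agilent arrays, called biological duplicates in the series text, which gave 8 arrays. How many embryos went into an array is not given in the sources used here. P-values measure the spread between these duplicates only.

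Imprints are marks of DNA methylation laid down in the germ line, differently in sperm and egg, and kept in somatic cells for life. Primordial germ cells erase them around the time they settle in the gonad, and in the male the paternal set is then written anew in fetal prospermatogonia. A whole gonad also holds Sertoli, Leydig, interstitial and endothelial cells, which keep their imprints. The arrays read the RNA of all these cells together and of both alleles together, so neither a germ cell level nor the allele in use was measured. In such bulk RNA, fewer cells of a type and less RNA per cell cannot be told apart.

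All levels below are log2 signals relative to the 75th percentile of their own array, so that 0 is that percentile and a step of 1 is a doubling. Levels are compared between stages for the same probe, never between genes. The value after ± is limma's standard error of a log2 difference, with 2 arrays per stage. A gene passed the test at a Benjamini-Hochberg adjusted p of limma under 0.05, over 21986 genes. Probes without a gene symbol count among these genes under the array's own name for them, so a gene can be counted more than once. Shares of all genes below rest on this base. Probes well above background made up 60.26% (E15.5 array 2) to 69.76% (E12.5 array 1) of the 41174 probes, and no member was saturated on any array. Of the 36 members, 33 were well above background on all 8 arrays and 3 (Peg10, Calcr and Rasgrf1) on 4.

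Arrays lay on 3 slides. Slide 1 carried array 1 of E12.5 and of E13.5, slide 2 carried array 2 of both, and slide 3 carried E14.5 and E15.5. Each slide had its own scan. Slides 1 and 2 were read with Feature Extraction 9.1.3.1 and slide 3 with 9.5.3.1. Slide, software version and stage therefore cannot be told apart in E14.5 against E13.5 and in E15.5 against E12.5. Correlations across 21986 genes were 0.977 to 0.989 between duplicates. E12.5 array 1 was closer to E13.5 array 1 on the same slide (0.978) than to its duplicate on slide 2 (0.977). On slide 3 the E15.5 duplicates were closest to each other (0.989), and the E14.5 duplicates were not: E14.5 array 1 was closer to E15.5 array 2 (0.983) than to E14.5 array 2 (0.982), and E14.5 array 2 was closer to E15.5 array 1 (0.986).

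Marker lists of 8 genes each were summed as signals in multiples of the 75th percentile, so the brightest genes of a list weigh most. The germ cell list was present at every stage, at 73.2 and 77.7 on the E12.5 arrays, 132 and 136 at E13.5, 103 and 140 at E14.5, and 89.2 and 117 at E15.5. Sertoli cell markers went from 105 and 106 at E12.5 to 64.4 and 82.4 at E15.5. The fetal Leydig cell list stood at 25.4 and 32.7 at E12.5 and between 103 and 163 on the 6 later arrays. From E12.5 to E13.5, 7 of its 8 genes rose, beside 2.68% of all genes. Interstitial and peritubular markers went from 48.9 and 49.2 to 92 and 102 over the 4 stages. Erythroid markers went from 138 and 156 at E12.5 to 8.36 and 11 at E15.5, and endothelial markers from 20.4 and 20.5 to 9.85 and 10.3. On the log2 scale the stage means of the globin genes Hbb-y, Hba-x and Hbb-bh1 fell from 6.82, 3.54 and 3.90 to 0.05, -2.21 and -3.34. Klf1 (-1.87 to -3.39) and Slc4a1 (1.16 to 0.26) also fell. Alas2 (1.97 to 2.69) and Epor (-1.16 to -1.02) did not, and the erythroid sum, led by globins, is no count of erythroid cells. Markers of the neighbouring mesonephros and its duct were at 4.15 and 4.49 at E12.5 and at 1.2 to 2.11 later, with Ret well above background on no array. The macrophage list, with 6 of 8 genes matched, stayed between 1.7 and 3.25. Over the span limma called 7 of 8 Leydig, 3 of 8 interstitial and 3 of 8 germ cell genes higher. It called 4 germ cell, 1 of 8 Sertoli, 3 of 8 endothelial, 5 of 7 erythroid and 3 of 7 mesonephric genes lower. Called higher were also 1 erythroid and 1 mesonephric gene, and of 6 macrophage genes 1 rose and 1 fell. Of all genes 17.6% rose and 17.4% fell. The part of these shifts in the results below was not tested.

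**Figure D1:**
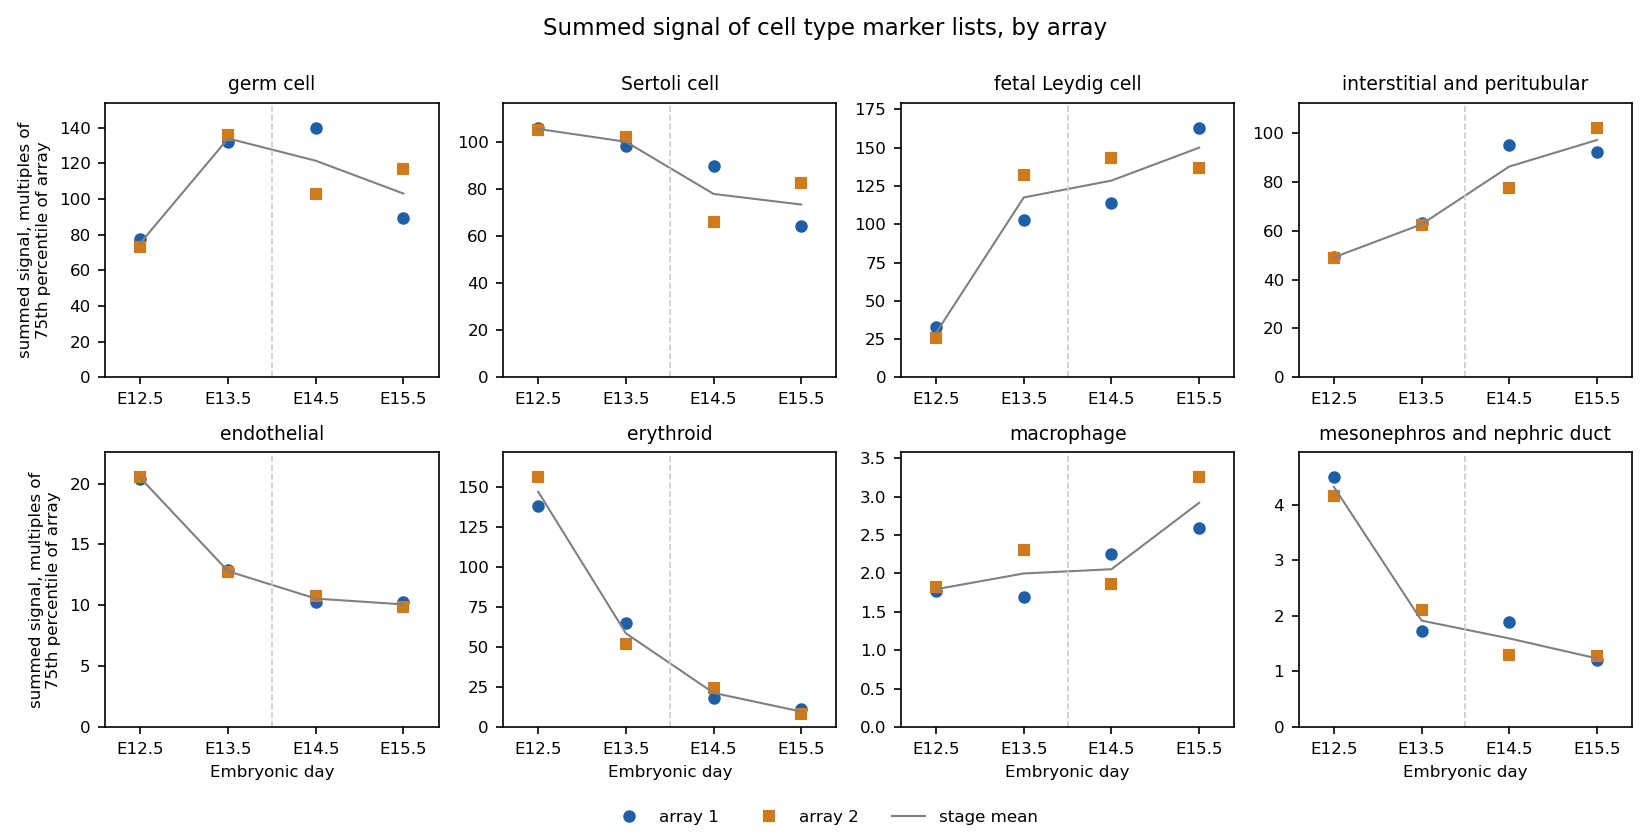
Summed signal of 8 marker lists (vertical axis, multiples of the array's 75th percentile) on each of the 8 arrays by embryonic day; blue circles are array 1, orange squares array 2, the line joins stage means and the dashed line marks the change of slide. The Leydig list is low only on the 2 arrays of E12.5 (25.4 and 32.7), and the erythroid list is highest on the same arrays (138 and 156).

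Over the whole span, E15.5 against E12.5, 7 of the 36 members rose and 10 fell. That is 19.4% and 27.8% of the members, and 17.6% of all genes rose and 17.4% fell in the same comparison. Phlda2 rose 6.78-fold and Slc22a18, by the brighter of its 2 probes, 4.93-fold, and Calcr and Rasgrf1 rose by at least 4.28-fold and 2.96-fold from levels not well above background. Among the falls were Ascl2 (4.49-fold), Snrpn (3.32-fold), Peg3 by its chosen probe (3.13-fold) and Peg10 (at least 2.91-fold). Calcr, Rasgrf1 and Peg10 passed the filter on dim probes only through stages where they were brighter. Among the 33 members above background on all 8 arrays, 5 rose and 9 fell. The shares of all genes that rose and fell under that filter were not counted. The median difference of the 36 members was -0.15 and that of all genes -0.07. The arrays of both stages did not overlap for 27 members (75%), nor for 74% of all genes. Both parental classes, which are textbook groupings and were not measured in these gonads, held genes of each direction. Of 19 paternally expressed members 3 rose and 5 fell, and of 16 maternally expressed members 4 rose and 5 fell.

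**Figure D2:**
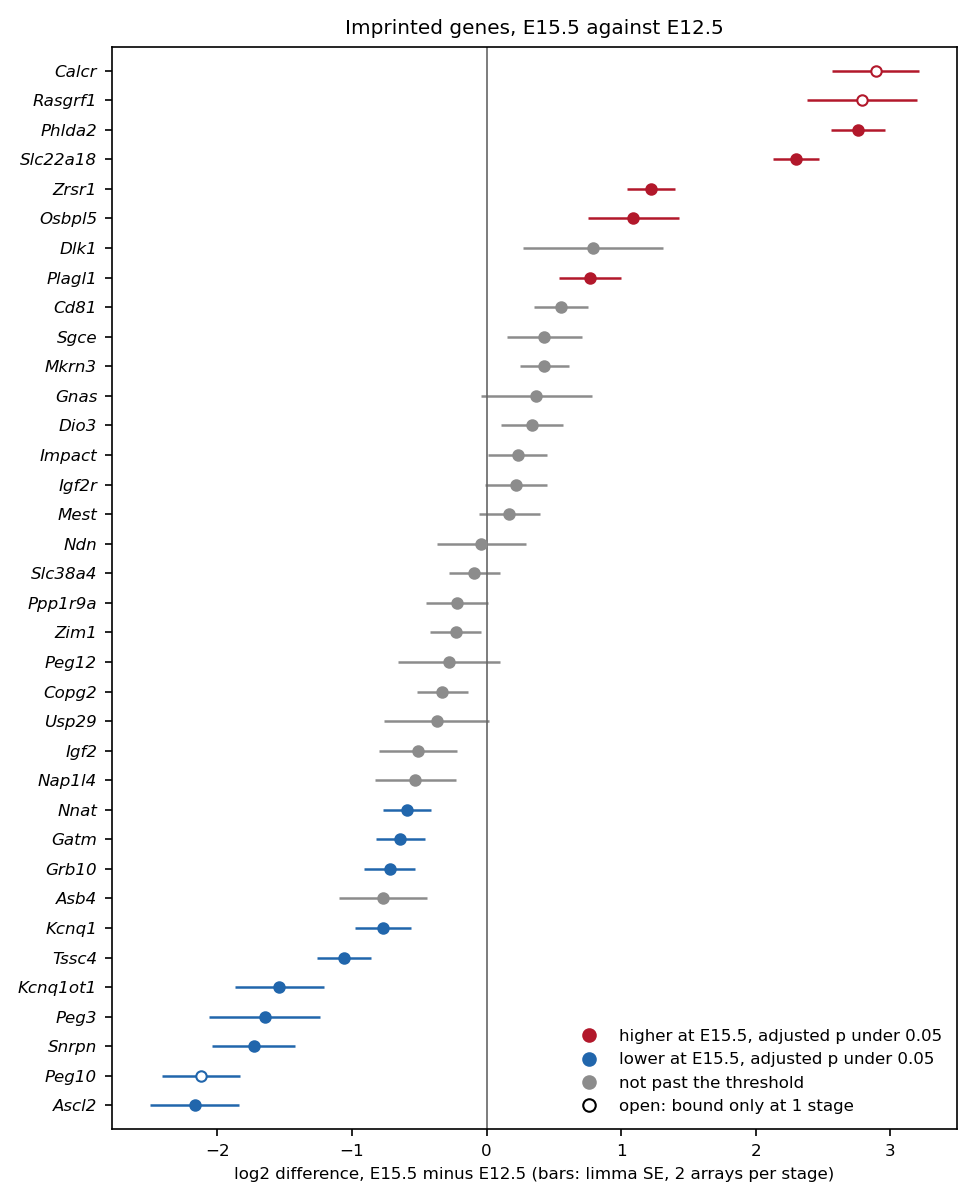
Difference of each of the 36 members between E15.5 and E12.5 (horizontal axis, log2, E15.5 minus E12.5), with bars of 1 limma standard error for 2 arrays per stage. Red genes rose and blue genes fell at an adjusted p under 0.05, among them Phlda2 at 2.76 and Ascl2 at -2.17, grey genes did not pass, and open circles (Calcr, Rasgrf1, Peg10) mark genes not well above background at 1 of the stages, whose sizes are bounds only.

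Day by day the changes were unevenly spread. From E12.5 to E13.5, 3 members rose and 1 fell (8.33% and 2.78%), beside 2.68% and 1.3% of all genes. From E13.5 to E14.5, across slides, 1 member rose and 2 fell, beside 6.44% and 6.04% of all genes. From E14.5 to E15.5 limma called 0 of 36 members in either direction, while 0.559% of all genes rose and 0.0955% fell. At an unadjusted limma p under 0.05 were 2 members, and that share over all genes was not counted. The members' medians were -0.14, 0.00 and 0.00 in these steps, and those of all genes -0.06, -0.02 and 0.01.

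The Kcnq1 domain on distal mouse chromosome 7 held 9 of the 36 measured members and 7 of the 17 that passed, and no test sets it apart from the other domains. In this cluster the paternally expressed long noncoding RNA Kcnq1ot1, read antisense from an intron of Kcnq1, silences neighbouring genes on the same chromosome, and the methylated maternal copy leaves them active. Between E12.5 and E15.5, 3 of its 9 measured genes rose (Phlda2, Slc22a18 and Osbpl5), 4 fell (Kcnq1ot1, Kcnq1, Ascl2 and Tssc4), and Cd81 and Nap1l4 did not pass, beside 17.6% of all genes higher and 17.4% lower. The silencing RNA was lower after E12.5, and Phlda2 was higher from E13.5 on. Slc22a18 was higher by 1 of its 2 probes, with the other at -0.82 over the span. Among the other neighbours Kcnq1, Ascl2 and Tssc4 were lower, Osbpl5 was higher, and Cd81 and Nap1l4 did not pass.

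The 250 bases before the start of Kcnq1ot1, Phlda2 and Slc22a18 are shown because their signals moved in the first step, the RNA down and both neighbours up (Slc22a18 by 1 of 2 probes), and because they differ in CpG, the dinucleotide that carries DNA methylation. They are RefSeq sequences of GRCm38.p6, 5′ to 3′ on the gene's strand, with each CG in capitals. The Kcnq1ot1 window (chr7:143296548-143296797, minus strand) held 5 CG, the Phlda2 window (chr7:143502525-143502774, minus strand) 21, and the Slc22a18 window (chr7:143473539-143473788, plus strand) 0. Over all 32851 promoters of that table the median was 6, and over the 55 promoters of 34 members it was 10. Bases after the start were not counted, and DNA methylation was not measured.
Kcnq1ot1: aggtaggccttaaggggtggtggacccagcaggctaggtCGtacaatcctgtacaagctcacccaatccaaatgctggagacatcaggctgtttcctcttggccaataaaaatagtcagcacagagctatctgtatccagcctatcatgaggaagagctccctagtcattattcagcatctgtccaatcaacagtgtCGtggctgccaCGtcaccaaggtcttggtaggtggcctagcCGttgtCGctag
Phlda2: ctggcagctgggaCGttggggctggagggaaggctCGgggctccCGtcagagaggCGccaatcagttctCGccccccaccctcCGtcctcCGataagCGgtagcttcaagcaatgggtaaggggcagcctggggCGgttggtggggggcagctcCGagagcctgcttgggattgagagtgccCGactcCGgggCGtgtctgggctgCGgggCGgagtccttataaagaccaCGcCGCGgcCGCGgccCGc
Slc22a18: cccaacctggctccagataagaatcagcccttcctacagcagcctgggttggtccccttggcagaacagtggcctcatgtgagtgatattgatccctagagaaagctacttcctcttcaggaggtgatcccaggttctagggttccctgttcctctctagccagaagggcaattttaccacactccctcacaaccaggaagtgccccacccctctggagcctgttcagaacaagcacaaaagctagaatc

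Phlda2 encodes a small pleckstrin homology domain protein that restrains growth of the placenta. Its level was -2.58 and -2.54 on the E12.5 arrays, -0.46 and -0.19 at E13.5, -0.22 and -0.51 at E14.5, and 0.17 and 0.24 at E15.5. The E12.5 arrays lay far below the other 6, the E13.5 and E14.5 arrays overlapped, and the E15.5 arrays were highest. The rise from E12.5 to E13.5 was 2.23 ± 0.20 (adjusted p = 0.00336), with 2.12 on slide 1 and 2.35 on slide 2. By E15.5 it was 2.76 ± 0.20, or 6.78-fold (adjusted p = 0.000266). A second probe of the gene gave 2.15 and 3.33. The E15.5 call held in all 17 alternative settings, and the E13.5 call in 16 of 17.

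Slc22a18, next to Phlda2, encodes a membrane transporter of the organic cation type. Its chosen probe read -3.10 and -3.16 at E12.5, -1.37 and -1.20 at E13.5, -1.03 and -0.97 at E14.5, and -0.80 and -0.85 at E15.5. Stages did not overlap, and E12.5 stood apart from the rest. The first step was 1.85 ± 0.17 (adjusted p = 0.00404), with 1.73 on slide 1 and 1.96 on slide 2, and the whole span was 2.30 ± 0.17, or 4.93-fold (adjusted p = 0.000295). The gene's other probe, also well above background on all 8 arrays, went the opposite way, by -0.27 and -0.82. It read -3.39 and -4.06 at E12.5 and -4.35 and -4.73 at E15.5. With the mean of both probes in place of the brighter one the differences were 0.79 and 0.74, and neither passed (adjusted p = 0.187 and 0.0706).

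Kcnq1ot1 itself read -1.66 and -0.66 at E12.5, -3.22 and -3.21 at E13.5, -3.29 and -3.59 at E14.5, and -2.73 and -2.68 at E15.5. Both E12.5 arrays were above all others, and the duplicates of E12.5 were 1.01 apart. The fall from E12.5 to E13.5 was -2.05 ± 0.33 (adjusted p = 0.0255), with -1.56 within slide 1 and -2.55 within slide 2. This call was lost when E12.5 array 2, either E13.5 array or either E15.5 array was left out (-2.06 to -1.55, adjusted p 0.0582 to 0.129). Against E12.5, E15.5 was lower by -1.54 ± 0.33 (adjusted p = 0.0137). Leaving out either E15.5 array ended that call (-1.57 and -1.52, adjusted p 0.0609 to 0.0674).

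Kcnq1, the host gene on the opposite strand, encodes a potassium channel subunit. It read -2.71 and -2.94 at E12.5, -3.36 and -3.75 at E13.5, -3.80 and -4.03 at E14.5, and -3.65 and -3.53 at E15.5. The E12.5 arrays were highest, and the E13.5 and E15.5 arrays overlapped. The first step of -0.73 ± 0.21 did not pass (adjusted p = 0.136), and the whole span of -0.77 ± 0.21 did (adjusted p = 0.0331). It no longer passed without any 1 of the E12.5 or E15.5 arrays (-0.88 to -0.65, adjusted p 0.076 to 0.149).

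Ascl2, a basic helix-loop-helix factor required for the trophoblast of the placenta, read -2.48 and -1.85 at E12.5, -2.99 and -2.25 at E13.5, -4.34 and -4.02 at E14.5, and -4.21 and -4.46 at E15.5. The 4 arrays of slide 3 lay below the 4 of slides 1 and 2, and within each slide pair the stages overlapped. The step across slides, E13.5 to E14.5, was -1.57 ± 0.33 (adjusted p = 0.0324), and it did not pass without any 1 array of E13.5, E14.5 or E15.5 (-1.93 to -1.20, adjusted p 0.0584 to 0.136). E15.5 against E12.5 was -2.17 ± 0.33, or 4.49-fold lower (adjusted p = 0.00401), and that call held whichever array was left out.

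Tssc4, which encodes a factor for assembly of the spliceosome, showed the same split by slide. It read 3.37 and 3.62 at E12.5, 3.23 and 3.49 at E13.5, 2.65 and 2.40 at E14.5, and 2.42 and 2.45 at E15.5. Its change at E14.5 relative to E13.5 was -0.84 ± 0.20 (adjusted p = 0.044), and each of the 8 leave-outs ended that call (-0.97 to -0.71, adjusted p 0.0649 to 0.193). The whole span was -1.06 ± 0.20 (adjusted p = 0.00882), and leaving out E12.5 array 2 or E15.5 array 2 ended it (-1.07 and -0.93, adjusted p 0.0547 to 0.0553).

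Osbpl5, a lipid transfer protein gene, was the third of the cluster to rise. It read 2.52 and 2.56 at E12.5, 2.71 and 2.83 at E13.5, 3.82 and 2.99 at E14.5, and 3.29 and 3.96 at E15.5. The duplicates of slide 3 were far apart, by 0.83 and 0.67, and those of the earlier stages were close. The span to E15.5 was 1.09 ± 0.34 (adjusted p = 0.0464), and it was lost without any 1 array of E12.5 or E13.5 or without E15.5 array 2 (0.75 to 1.11, adjusted p 0.0687 to 0.229). It also missed the threshold with slide as a random block (adjusted p = 0.0563) and with arrays scaled to their medians (adjusted p = 0.0746).

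The remaining members of the cluster, the tetraspanin gene Cd81 and the nucleosome assembly gene Nap1l4, did not pass in any comparison. Cd81 read 5.37 and 5.61 at E12.5 and 6.02 and 6.06 at E15.5, a difference of 0.55 ± 0.20 (adjusted p = 0.0738) that passed under quantile normalization (0.91, adjusted p = 0.00597). Nap1l4 read 5.75 and 5.99 at E12.5 and 5.03 and 5.65 at E15.5, and its 3 probes did not go one way.

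**Figure D3:**
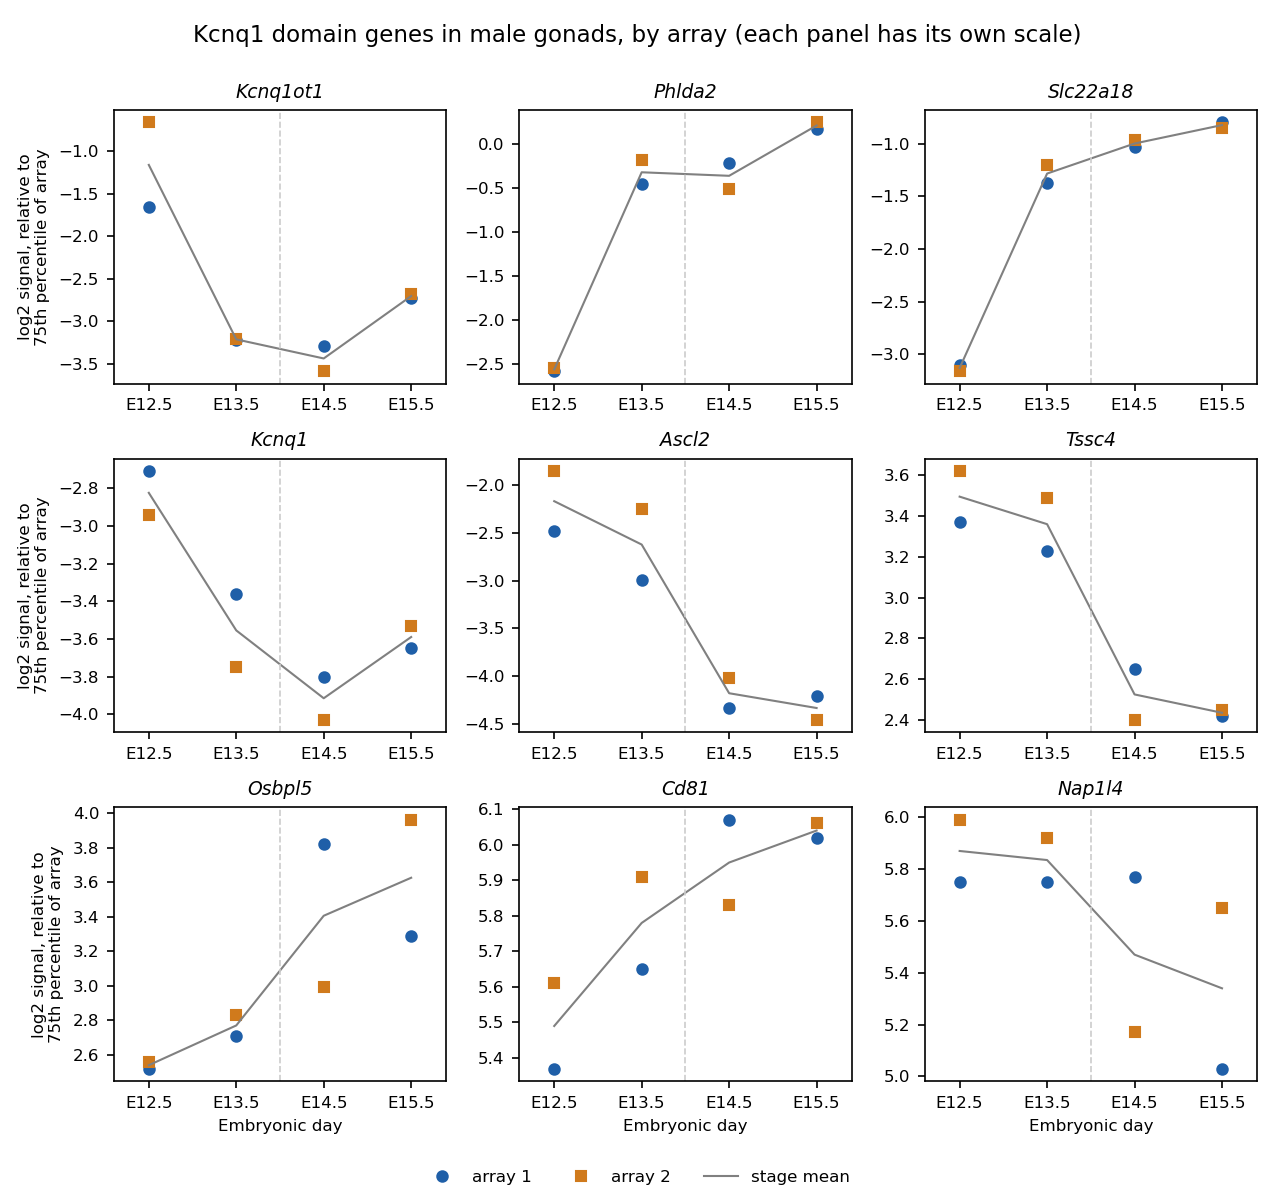
Levels of the 9 measured Kcnq1 domain genes (vertical axes, log2 signal relative to the array's 75th percentile, scaled separately in each panel) by embryonic day; blue circles are array 1, orange squares array 2, the line joins stage means and the dashed line marks the change of slide. Phlda2 and Slc22a18 (its chosen probe) step up and Kcnq1ot1 steps down between E12.5 and E13.5, whereas Ascl2 and Tssc4 step down at the change of slide.

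Outside this cluster, 4 members rose by E15.5. The calcitonin receptor gene Calcr read -6.73 and -6.80 at E12.5, -7.36 and -6.54 at E13.5, -5.13 and -4.59 at E14.5, and -3.96 and -3.77 at E15.5. It was not well above background on any of the 4 arrays of slides 1 and 2 and was above it on all 4 of slide 3. For such a dim stage only a bound exists: each dim array is given the lowest signal found well above background, or the probe's own where that is brighter. By this bound Calcr rose at least 2.08-fold between E13.5 and E14.5, and E15.5 was at least 4.28-fold higher than E12.5. The fitted differences were 2.09 ± 0.32 (adjusted p = 0.0153) and 2.89 ± 0.32 (adjusted p = 0.00124). The first was lost without E13.5 array 1 or E14.5 array 1 (1.68 and 2.36, adjusted p 0.0518 to 0.0589). It was 0.11 (adjusted p = 0.672) under normexp background correction with extreme local backgrounds replaced, and -1.16 (adjusted p = 0.324) under normexp on the deposited backgrounds. Under the latter the whole span was 0.61 (adjusted p = 0.693).

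Rasgrf1, an exchange factor that activates Ras and is paternally expressed in brain, behaved alike on these arrays. It read -6.56 and -7.82 at E12.5, -6.47 and -7.03 at E13.5, -5.17 and -5.15 at E14.5, and -4.48 and -4.32 at E15.5. Only the 4 arrays of slide 3 were well above background. E15.5 was at least 2.96-fold higher than E12.5, with a fitted difference of 2.79 ± 0.41 (adjusted p = 0.00362), and the call held whichever array was left out. Under normexp, with the deposited or the replaced backgrounds, the difference was 0.13 and did not pass (adjusted p = 0.947 and 0.606).

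Zrsr1, an intronless gene for a splicing factor related to U2AF, rose in the first step. It read 0.16 and 0.40 at E12.5, 1.22 and 1.32 at E13.5, 1.69 and 1.67 at E14.5, and 1.57 and 1.43 at E15.5. E12.5 was lowest, and the E14.5 arrays were highest. From E12.5 to E13.5 the rise was 0.99 ± 0.18 (adjusted p = 0.036), 1.07 on slide 1 and 0.92 on slide 2, and every 1 of the 8 leave-outs ended that call (0.87 to 1.12, adjusted p 0.0555 to 0.208). Over the whole span it was 1.22 ± 0.18 (adjusted p = 0.00349), and that call held in every leave-out.

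Plagl1, a zinc finger gene that regulates other imprinted genes, read -1.72 and -1.74 at E12.5, -1.65 and -1.63 at E13.5, -1.13 and -1.54 at E14.5, and -1.18 and -0.73 at E15.5. Its rise to E15.5 was 0.77 ± 0.23 (adjusted p = 0.042). It was lost without any 1 array of E12.5, E13.5 or E15.5 (0.55 to 1, adjusted p 0.0508 to 0.222), with slide as a random block (adjusted p = 0.0508) and with arrays scaled to their medians (adjusted p = 0.0957).

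Binding motifs of the zinc finger proteins ZFP57 and PLAGL1 were looked for in the promoter sequences. ZFP57 protects imprints and binds the hexamer TGCCGC when it is methylated, and PLAGL1 binds GC-rich sites with the core GGGGCCCC. Searched on both strands of the 250 bases before each start, and counting each promoter once, the hexamer was in 16.4% of the 55 member promoters and in 8.68% of all 32851. The core was in 5.45% and 0.889%, and the 3 members that held it were Peg3, Ppp1r9a and Rasgrf1. The hexamer and the core share no letters in any window shown, since none holds both. Mest was counted for a pair of promoters that start 3 bases apart and hold the same matches. Members with a hexamer were Meg3, Osbpl5, Zim1, Calcr, Mest, Copg2, Plagl1 and Zdbf2. A match is a description of letters and not a bound site.

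The windows of Calcr (chr6:3763624-3763873, minus strand), Plagl1 (chr10:13090582-13090831, plus strand), Rasgrf1 (chr9:89909525-89909774, plus strand) and Peg3 (chr7:6730420-6730669, minus strand) are shown because these genes changed and hold a match, which is in capitals. Osbpl5 also meets both, in 1 of its 3 promoters (hexamer 60 bases before that start), and is not printed. For Calcr the match is in 1 of its 2 promoters, the one shown. The hexamer, in its reverse form in both, begins 240 bases before the start in Calcr and 90 before it in Plagl1. The core begins 58 bases before the start in Rasgrf1 and 201 in Peg3. All are RefSeq sequences of GRCm38.p6, 5′ to 3′ on the gene's strand.
Calcr: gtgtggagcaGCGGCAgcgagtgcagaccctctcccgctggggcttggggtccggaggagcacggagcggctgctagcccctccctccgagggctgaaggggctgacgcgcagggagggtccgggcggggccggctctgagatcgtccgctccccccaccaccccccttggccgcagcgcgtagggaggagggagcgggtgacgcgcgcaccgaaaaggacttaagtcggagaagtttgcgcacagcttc
Plagl1: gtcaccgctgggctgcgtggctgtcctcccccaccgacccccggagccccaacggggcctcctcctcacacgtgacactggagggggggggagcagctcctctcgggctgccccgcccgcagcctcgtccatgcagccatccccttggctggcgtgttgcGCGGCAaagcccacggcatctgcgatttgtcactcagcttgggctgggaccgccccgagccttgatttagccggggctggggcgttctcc
Rasgrf1: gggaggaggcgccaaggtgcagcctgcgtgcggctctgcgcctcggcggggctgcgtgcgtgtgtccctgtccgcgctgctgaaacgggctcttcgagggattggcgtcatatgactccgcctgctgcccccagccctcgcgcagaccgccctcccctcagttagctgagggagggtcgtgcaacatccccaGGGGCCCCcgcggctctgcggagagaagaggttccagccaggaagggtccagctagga
Peg3: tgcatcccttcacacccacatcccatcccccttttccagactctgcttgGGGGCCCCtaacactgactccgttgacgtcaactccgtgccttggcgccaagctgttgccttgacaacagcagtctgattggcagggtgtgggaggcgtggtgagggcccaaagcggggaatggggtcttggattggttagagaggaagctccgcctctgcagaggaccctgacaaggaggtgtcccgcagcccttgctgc

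Of the members that fell outside the Kcnq1 domain, 3 paternally expressed ones fell most. Peg10, a gene derived from a retrotransposon and needed for the placenta, read -3.85 and -4.15 at E12.5, -4.55 and -5.29 at E13.5, -5.91 and -6.08 at E14.5, and -5.93 and -6.31 at E15.5. It was well above background on the 4 earlier arrays only. E15.5 was at least 2.91-fold lower than E12.5, with a fitted difference of -2.12 ± 0.29 (adjusted p = 0.00284) that held in every leave-out. Within slides, E13.5 was below E12.5 by -0.70 and -1.15 (adjusted p = 0.167).

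Snrpn encodes the SmN protein of the spliceosome and marks the Prader-Willi domain. It read 0.41 and 0.17 at E12.5, -0.46 and -0.40 at E13.5, -1.47 and -0.86 at E14.5, and -1.07 and -1.80 at E15.5. E12.5 was highest, E13.5 next, and E14.5 and E15.5 overlapped. The fall over the span was -1.73 ± 0.31, or 3.32-fold (adjusted p = 0.00747), a second probe gave -1.84, and the call held in every leave-out.

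Peg3, a zinc finger gene, read 1.75 and 2.12 at E12.5, 1.25 and 1.25 at E13.5, 0.11 and 1.13 at E14.5, and 0.70 and -0.12 at E15.5. By its chosen probe it fell by 1.65 on the log2 scale from E12.5 to E15.5, with a standard error of 0.41 (adjusted p = 0.0222). A second probe, well above background on all 8 arrays, gave 0.18, with its E12.5 arrays between its E15.5 arrays. That probe read 2.03 and 0.17 on the E14.5 arrays and 0.20 and 1.15 at E15.5, so the array that was low by one probe was high by the other. The call was lost without either E12.5 array or without E15.5 array 2 (-1.83 to -1.23, adjusted p 0.051 to 0.124).

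Another 3 members fell by smaller amounts. Grb10, an adaptor that damps insulin and IGF signalling, read 4.76 and 4.89 at E12.5, 4.59 and 4.76 at E13.5, 3.94 and 4.24 at E14.5, and 4.17 and 4.04 at E15.5, a fall of -0.72 ± 0.19 (adjusted p = 0.0281). Its other probes gave -0.49 and -0.26. Gatm, the first enzyme of creatine synthesis, read 1.21 and 1.41, 1.24 and 1.34, 0.93 and 0.72, and 0.67 and 0.68 at the 4 stages in turn, a fall of -0.64 ± 0.18 (adjusted p = 0.034). The neuronatin gene Nnat read 1.77 and 1.95, 1.93 and 2.10, 1.45 and 1.30, and 1.36 and 1.18, a fall of -0.59 ± 0.18 (adjusted p = 0.0487). For each of these the arrays of slide 3 lay below those of slides 1 and 2. All these calls were lost without any 1 array of E12.5 or E15.5, that of Gatm also without either E13.5 array, and that of Nnat in all 8 leave-outs. The differences then ran from -0.79 to -0.66 for Grb10 (adjusted p 0.0799 to 0.147), from -0.74 to -0.54 for Gatm (0.0601 to 0.165) and from -0.68 to -0.50 for Nnat (0.0538 to 0.226). With arrays scaled to their medians none of the 3 passed (adjusted p 0.0631 for Grb10, 0.0894 for Gatm, 0.113 for Nnat), and Nnat also missed with slide as a random block (0.0562).

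**Figure D4:**
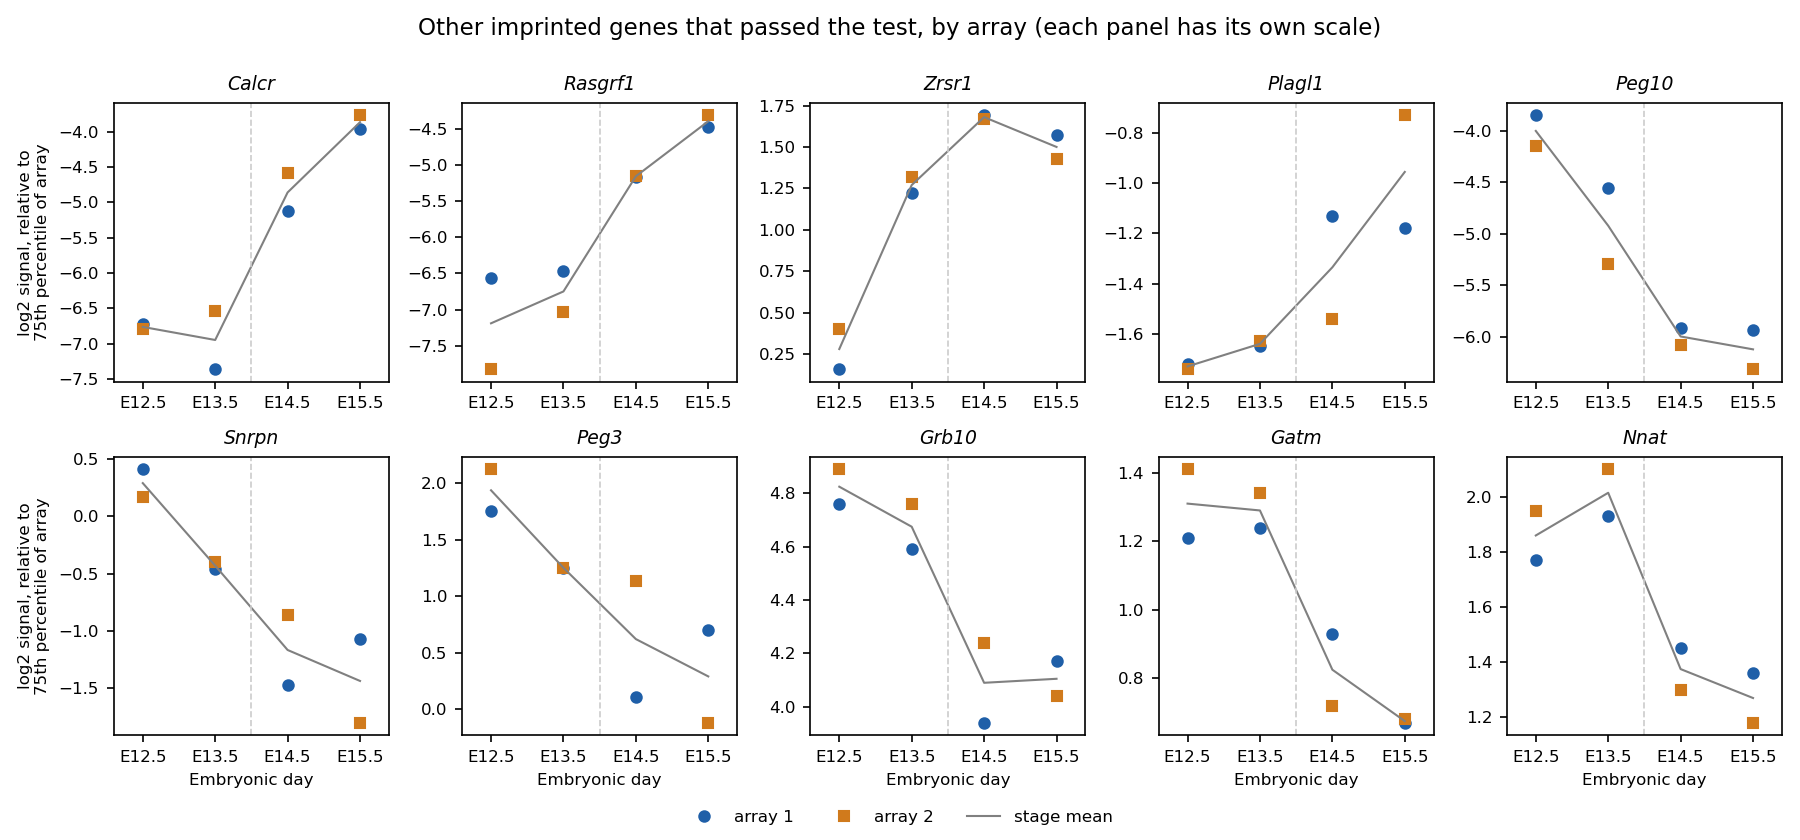
Levels of the 10 members outside the Kcnq1 domain that passed in a comparison (vertical axes, log2 signal relative to the array's 75th percentile, scaled separately in each panel) by embryonic day; symbols are as for the Kcnq1 domain genes. Zrsr1 steps up between E12.5 and E13.5, and Snrpn steps down there with separate arrays (0.17 and 0.41 against -0.46 and -0.40) without passing that comparison.

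The other 19 measured members passed in no comparison. Among growth regulators, the fetal growth factor gene Igf2 read 5.84 to 6.67 over the 8 arrays, and E15.5 differed from E12.5 by -0.51 ± 0.29 (adjusted p = 0.209). Igf2r, the receptor that clears IGF2, read 2.37 and 2.91 at E12.5, 1.73 and 1.94 at E13.5, 2.69 and 2.53 at E14.5, and 2.79 and 2.91 at E15.5. Its E13.5 arrays were the lowest, by -0.80 ± 0.23 against E12.5 (adjusted p = 0.132) and with E14.5 higher by 0.78 ± 0.23 (adjusted p = 0.0744). Under quantile normalization the latter step passed (0.84, adjusted p = 0.0429).

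In the Dlk1-Dio3 domain, Dlk1, a transmembrane protein of the Notch ligand type, read 2.91 to 4.50, and E15.5 differed from E12.5 by 0.79 ± 0.52 (adjusted p = 0.273). Dio3, the enzyme that inactivates thyroid hormone, read -1.98 to -0.77. The hydrolase-like gene Mest read 5.56 to 6.29 and its overlapping neighbour Copg2, a coat protein gene, 1.94 to 2.71. In the Peg3 domain, Usp29 read -2.53 to -1.14 and Zim1 -4.07 to -3.58.

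Of the Prader-Willi genes beside Snrpn, Ndn read 1.47 to 2.34, Mkrn3 -3.44 to -2.76 and Peg12 1.23 to 2.20. In the Peg10 domain, Ppp1r9a read 0.51 to 1.30, Asb4 1.89 to 3.05, and Sgce, for a dystrophin-associated sarcoglycan, 3.23 to 4.01. The second probe of Sgce rose by 1.48 between E12.5 and E15.5, beside 0.43 ± 0.28 by the chosen one, and their mean passed (0.96, adjusted p = 0.031). Gnas, the gene of the stimulatory G protein subunit, read 3 to 4.10, Impact 1.11 to 1.81, and the amino acid transporter gene Slc38a4 0.84 to 1.52. A p that misses the threshold does not show that these genes stayed level.

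On slide 3 the members' duplicates differed in a mirrored way. The gap between array 1 and array 2 at E14.5 was opposite in sign to the gap at E15.5 for 30 of 36 members and for 76.6% of all genes, and across the 36 members these gaps correlated at -0.866. Across all 21986 genes the value was -0.589. The points share the same 4 arrays and are a description with no test. In E12.5 and E13.5, where each number had its own slide, the gaps correlated at 0.525 over members and 0.646 over all genes. There 10 of 36 members and 29.3% of all genes had opposite signs.

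For 9 members both gaps exceeded 0.5 with opposite signs. The share of all genes with such gaps was not counted. Lower on E14.5 array 1 and on E15.5 array 2 than on their partners were 5 of the 9, Dlk1, Gnas, Peg3, Ndn and Snrpn. Dlk1 read 2.91 and 4.35 at E14.5 and 4.50 and 3.50 at E15.5. Gnas read 3.01 and 4.10, then 3.88 and 3.09, and Ndn read 1.47 and 2.27, then 2.29 and 1.68. The other 4, Osbpl5, Peg12, Asb4 and Nap1l4, were higher on those same arrays. Peg12 read 2.16 and 1.36 at E14.5 and 1.23 and 2.20 at E15.5.

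The sums of the marker lists were split over the same arrays. On E14.5 array 1 and E15.5 array 2 the germ cell list summed to 140 and 117, and on their partners to 103 and 89.2. Sertoli markers summed to 89.7 and 82.4 against 66.1 and 64.4, whereas Leydig markers summed to 114 and 137 against 143 and 163. Genes within a list did not all go with its sum. Gata4 of the Sertoli list read -3.20 and -2.75 on those arrays and -1.32 and -1.58 on their partners. Pou5f1 of the germ cell list read 1.64 and 1.17 against 2.18 and 1.61. The part of these sums in the gaps was not tested. Pairing the arrays of slide 3 crosswise in a fit, chosen after seeing the data, called 604 genes between E14.5 and E15.5 in place of 144, and 0 members.

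**Figure D5:**
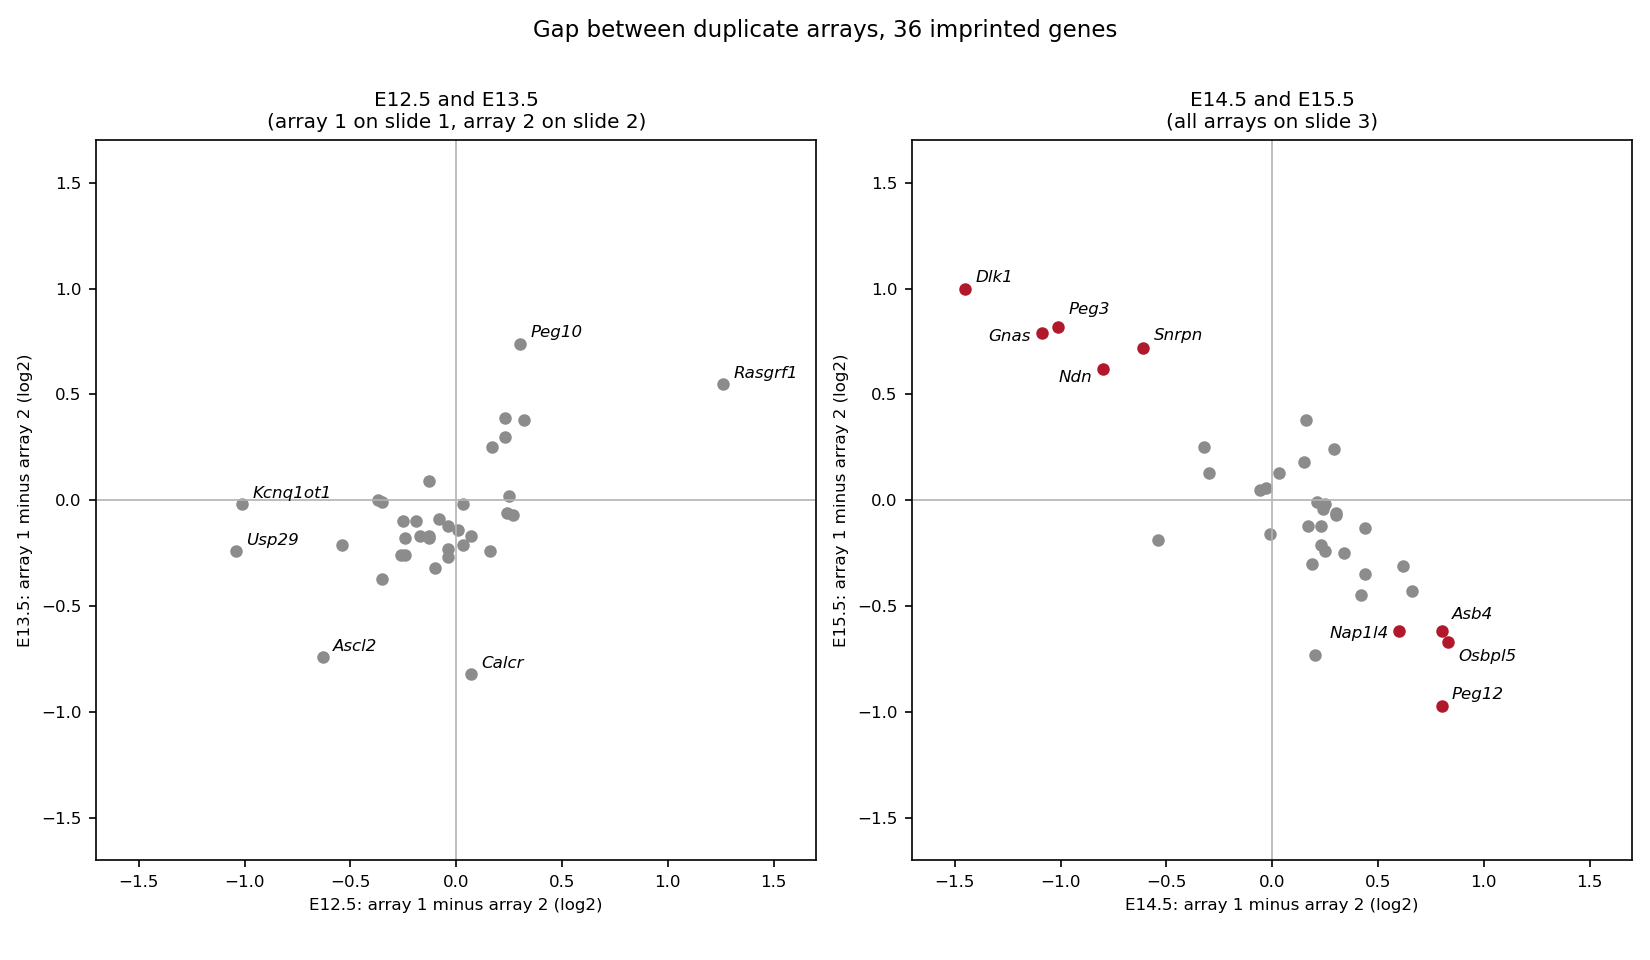
Gap between the duplicate arrays (array 1 minus array 2, log2) of each of the 36 members at 1 stage against the gap at another: E12.5 and E13.5 on the left, E14.5 and E15.5 on the right. Red points are the 9 members with gaps over 0.5 and opposite signs, which run from Dlk1 (-1.45 at E14.5, 1 at E15.5) to Peg12 (0.80 and -0.97).

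A wider list of 45 other imprinted genes had 34 matched and 30 tested. Of these, limma called 2 higher and 0 lower from E12.5 to E13.5 (all genes: 2.68% and 1.3%). From E13.5 to E14.5, 2 rose and 4 fell (all genes: 6.44% and 6.04%), and from E12.5 to E15.5, 9 rose and 6 fell (17.6% and 17.4%). No gene of the list passed between E14.5 and E15.5 (all genes: 0.559% and 0.0955%). At an unadjusted limma p under 0.05 were 11 in the first step and 6 in the last, and that share over all genes was not counted. The median difference over the span was 0.18, and -0.07 over all genes. Slc22a2, an organic cation transporter gene of the Igf2r cluster, had the largest difference. It read -8.04 and -7.71 at E12.5, below background, and -2.59 and -2.37 at E15.5, at least 11.2-fold higher (fitted difference 5.40 ± 0.27, adjusted p = 0.000118). For Nap1l5 the bound was a rise of at least 2.57-fold over the same span. Slc22a2 and Nap1l5 passed the filter on dim probes only through later stages, where they were brighter. No count of this list was made without such genes. Ampd3, above background on 1 of 2 arrays at E12.5, rose by 2.75 ± 0.42 and the actin nucleator gene Cobl by 1.83 ± 0.25.

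Of the genes of that list that fell, Tspan32 changed by -2.91 ± 0.18 over the span. Dlx5 was well above background on the E12.5 arrays only (adjusted p = 0.00213 over the span) and passed the filter through them alone. Its bound there was 1-fold, so no size is given. Th, tyrosine hydroxylase, changed by -1.93 ± 0.48 from E13.5 to E14.5 (adjusted p = 0.0478), with 1 of 2 arrays above background at E14.5. It passed the filter through E13.5 alone, where it was brightest. Snurf, which shares its transcript with Snrpn, changed by -1.83 ± 0.26 over the span, beside -1.73 ± 0.31 for Snrpn. Cdkn1c, the cell cycle inhibitor p57 of the Kcnq1 domain, is named after its values were seen. It read 4.95 and 5.16 at E12.5, 4.97 and 5.23 at E13.5, 3.27 and 3.69 at E14.5, and 3.64 and 3.22 at E15.5, a change of -1.62 ± 0.25 over the span (adjusted p = 0.00395). Like Ascl2 and Tssc4 it was split by slide.

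Of 17 factors that write, read or protect imprints, 12 were tested. Dnmt3l, the cofactor that de novo methylation needs in prospermatogonia, was the only one of them to rise over the span. It read -2.74 and -3.74 at E12.5, 2 and 1.72 at E13.5, 3.47 and 3.82 at E14.5, and 4.26 and 4.14 at E15.5. The first step was 5.10 ± 0.34 (adjusted p = 0.00155) and the whole span 7.44 ± 0.34 (adjusted p = 9.93e-05). In the first step Kcnq1ot1 fell and Phlda2, Slc22a18 (by 1 of 2 probes) and Zrsr1 rose. Whether these changes lay in the same cells was not measured.

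Over the span 1 of the 12 rose and 4 fell, beside 17.6% and 17.4% of all genes. Dppa3, a germ cell factor that shields methylation in the early embryo and is also on the germ cell list, read 5.36 and 5.24 at E12.5, 5.79 and 5.75 at E13.5, 4.23 and 4.02 at E14.5, and 1.18 and 0.62 at E15.5. Its change was -4.40 ± 0.23 (adjusted p = 0.000128). The zinc finger gene Zfp445, which maintains imprints together with ZFP57, changed by -2.45 ± 0.34 (adjusted p = 0.00274). Trim28, the corepressor that both recruit, changed by -1.19 ± 0.36 (adjusted p = 0.0412), and the maintenance methyltransferase gene Dnmt1 by -0.82 ± 0.22 (adjusted p = 0.0309).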

How the data were processed

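The deposited scanner files give linear spot intensity, 1 file per array. Per the file headers, Agilent Feature Extraction 9.1.3.1 (E12.5, E13.5) or 9.5.3.1 (E14.5, E15.5) had subtracted the background; the submitters' processing notes name 9.5. The authors also deposited a table with 1 column per stage, a linear ratio to a centre whose rule is unknown (column medians 1.14, 1, 0.898 and 0.859), used here for directions only. Array numbers are those of the deposited files. The 41 members and all lists were chosen with earlier results of these data known.

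Outlier spots were left out and spots of a probe averaged over 41174 probes. A RefSeq accession gave 22951 probes (55.74%) 1 symbol, 0 several and 18223 none. Values were log2 of the processed signal, from which the 75th percentile of the array was taken away. A probe was kept if both arrays of some stage were well above background, and the brightest probe stood for a gene. Probes with no symbol were grouped by the array's own name for them, and with these the genes numbered 21986. A linear model of 4 stage means over 8 arrays was fitted in limma 3.58.1 (lmFit, eBayes; R 4.3.3), with Benjamini-Hochberg adjustment. The fit was tested on simulated data. The number of arrays limits the precision. All members are accounted for: those that passed by every array's value, the 12 largest in full, the rest by range; of the other lists, up to 4 genes in each direction are named. The files hold no mean signal column, so normexp (offset 50) took the median signal. Other scalings, filters, probe rules, slide blocks and each array left out in turn were alternatives.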

Additional observations from a re-analysis of the deposited data

How the results depend on the processing

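The members' counts are given as higher and lower, and the 4 comparisons as step 1 (E13.5 against E12.5), step 2 (E14.5 against E13.5), step 3 (E15.5 against E14.5) and the span (E15.5 against E12.5). No member passed in step 3 under any setting.

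Leaving out each array in turn gave, for members, 2 to 2 higher and 0 to 1 lower in step 1 (reported: 3 and 1), 0 to 2 higher and 0 to 1 lower in step 2 (1 and 2), and 5 to 7 higher and 3 to 9 lower over the span (7 and 10). All genes ranged from 188 to 695 in step 1 (874), 220 to 2091 in step 2 (2745), 0 to 78 in step 3 (144) and 3492 to 7934 over the span (7703). Of 24 member calls, 10 held whichever array was left out. The lowest counts came without E13.5 array 2 (steps 1 and 2), without either E14.5 array or E15.5 array 2 (step 3) and without E15.5 array 2 (span).

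Scaling arrays to their medians gave 2 members higher and 1 lower in step 2 and 5 higher and 7 lower over the span, without Osbpl5, Plagl1, Grb10, Nnat and Gatm, and moved the median of all genes to -0.13 in step 3 and -0.11 over the span. Quantile normalization gave 3 members higher in step 2. Without the filter on dim probes, 0 members were lower in steps 1 and 2 and 6 over the span, with 419 and 872 genes in those steps. Probes above background on all arrays left 0 members higher in step 2 and 22 genes in step 3. Fits of only the arrays compared gave 1 member higher and 0 lower in step 1, 0 and 0 in step 2 and 6 lower over the span, with 139, 779 and 0 genes in steps 1 to 3. Slide as a random block gave 1 member lower in step 2 and, over the span, 5 higher and 9 lower, without Osbpl5, Plagl1 and Nnat.

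The slide as a fixed block, which pairs the replicates of E12.5 and E13.5, kept all 4 member calls of step 1, with 981 genes, and gave 226 genes in step 3. The crosswise pairing of slide 3, added after seeing the data, gave 604 there. Same-numbered arrays of E12.5 and E13.5 share a slide, and their gaps correlated at 0.646 over all genes.

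Normexp left 2, 0, 0 and 1153 genes in the 4 comparisons and 0 members in steps 1 and 2, with 2 members higher and 0 lower over the span. It turned Calcr in step 2 to -1.16 (adjusted p = 0.324), where E13.5 was not well above background. Its 2 genes of step 1 were all higher (100%), against 67.4% of the calls reported. With 6 extreme local backgrounds replaced, added after seeing the data, it gave 555 genes in step 1, 231 in step 3 and 4 members lower in step 2, and 22 of 24 member calls held. The cause of these shifts was not tested. All 24 member calls had the same direction in the authors' deposited table.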
